A study of Mus musculus with 20 samples.

Results

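Immediate early genes, those transcribed within minutes of a stimulus and without new protein synthesis, were examined in the injected quadriceps of aged mice. The 10 genes were Fos, Fosb, Jun, Junb, Egr1, Egr2, Atf3, Ier2, Nr4a1 and Nr4a3, chosen by name, and all 10 were found by symbol among the 55416 genes of the count table and passed the filter on low counts that left 14471 genes. The mice were male wild-type C57BL/6J animals of 26 to 28 months that had been fasted for 4 h. Each received 1 injection of 50 µL into the muscle, either saline (0.9%; Control, n = 10) or secretome (0.4% in saline; Secretome, n = 10), and the muscle was taken 3 h later. The secretome is a cell-free product made from medium conditioned by partially differentiated human embryonic stem cells. No group without an injection was analysed here, so needle and fluid were common to both groups, and levels cannot be set against resting muscle.

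Between 13286983 and 22987237 reads were counted on genes per library. Libraries are numbered in their labels, 1 to 10 for Control replicates 1 to 10 and 11 to 20 for Secretome replicates 1 to 10. The share of counts on Ttn, the titin gene, followed these numbers: 7.02 to 11.03% in libraries 1 to 5, 16.4 to 21.1% in libraries 6 to 15 and 14.2 to 14.7% in libraries 16 to 20. Libraries 6 to 15 hold 5 muscles of each treatment, so the members were compared in all 20 muscles and within this range, while outside it library number and treatment cannot be told apart. Markers of mature myofibres (Acta1, Ckm, Myh4 and 4 others) summed to between 81750 and 114000 CPM (read counts scaled to the library size) per muscle, which matches the tissue label.

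The 10 genes encode nuclear proteins. Fos and Fosb proteins pair with Jun or Junb to form AP-1, a dimer that binds regulatory DNA. Atf3 belongs to the related ATF/CREB family and is known as a stress-responsive gene. Egr1 and Egr2 are zinc finger factors, Ier2 is a small short-lived nuclear protein, and Nr4a1 and Nr4a3 are orphan nuclear receptors known in muscle for their rapid induction by exercise and by beta-adrenergic signalling. Transcription of these genes is classically driven by kinase cascades that act on serum response factor (SRF) and its partners at CArG boxes and on CREB at cyclic AMP response elements.

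The promoters of 5 of these genes are shown as sequence context for genes that varied differently between muscles, and their motifs were not tested against that variation. The RefSeq table of build GRCm38.p6, matched by symbol, gave 12 start sites for 8 of the 10 genes (not Egr1 or Ier2); the counts themselves were made on GRCm39, so the windows serve as sequence only. In the 250 bases before each start, the core of the cyclic AMP response element, TGACG on either strand, was found 4 times in Nr4a1, 4 times in Nr4a3, 2 times in Fos, 2 times in 3 of the 5 Egr2 windows, 1 time each in Fosb, Junb and Atf3, and not in Jun. Of all 32851 windows of this length, 17.8% held at least 1 match, 3.9% at least 2 and 0.137% at least 4. The full palindrome TGACGTCA, which contains the core on both strands, occurred in none of the 12 windows and in 1.55% of all windows, and the AP-1 element TGANTCA in none and in 6.75%. A CArG box (named motif, both strands) was found in 4 of the 5 Egr2 windows, in no other member's, and in 1.47% of all windows. Of these Egr2 windows, 3 overlap and hold the same CArG box and the same TGACG matches, so they are not separate hits. Sites more than 250 bases before a start were not searched. These are matches of letters and not measured binding. Below, 5′ to 3′ on the strand of the gene, capitals mark TGACG or its reverse complement CGTCA and, in Egr2 alone, the CArG box. Fos and Egr2 stand for the genes that varied together (chr12:85473640-85473889 and chr10:67537619-67537868, both plus strand). Jun is the least variable of the 10 genes, though not of all genes (chr4:95052223-95052472, minus strand), and Nr4a1 and Nr4a3 are the receptor pair (chr15:101266596-101266845 and chr4:48045055-48045304, both plus strand).
Fos: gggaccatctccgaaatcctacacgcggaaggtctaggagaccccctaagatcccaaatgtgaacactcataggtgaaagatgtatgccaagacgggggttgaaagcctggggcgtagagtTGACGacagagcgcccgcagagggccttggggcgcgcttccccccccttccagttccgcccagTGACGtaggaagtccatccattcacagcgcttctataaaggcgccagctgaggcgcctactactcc
Egr2: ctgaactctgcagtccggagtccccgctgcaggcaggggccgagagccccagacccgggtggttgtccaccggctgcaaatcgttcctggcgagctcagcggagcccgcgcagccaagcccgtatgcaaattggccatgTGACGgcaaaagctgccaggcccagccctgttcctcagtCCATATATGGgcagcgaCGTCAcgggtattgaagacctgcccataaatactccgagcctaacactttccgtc
Jun: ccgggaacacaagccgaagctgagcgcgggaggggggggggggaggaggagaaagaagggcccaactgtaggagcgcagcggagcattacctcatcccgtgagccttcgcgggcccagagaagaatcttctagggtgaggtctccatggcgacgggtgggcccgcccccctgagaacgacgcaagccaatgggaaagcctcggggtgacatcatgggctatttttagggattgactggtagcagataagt
Nr4a1: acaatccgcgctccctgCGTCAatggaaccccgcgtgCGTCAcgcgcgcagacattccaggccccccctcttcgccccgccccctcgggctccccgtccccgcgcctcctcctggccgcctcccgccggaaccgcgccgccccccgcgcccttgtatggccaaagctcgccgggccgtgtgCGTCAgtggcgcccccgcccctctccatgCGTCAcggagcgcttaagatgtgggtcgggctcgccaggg
Nr4a3: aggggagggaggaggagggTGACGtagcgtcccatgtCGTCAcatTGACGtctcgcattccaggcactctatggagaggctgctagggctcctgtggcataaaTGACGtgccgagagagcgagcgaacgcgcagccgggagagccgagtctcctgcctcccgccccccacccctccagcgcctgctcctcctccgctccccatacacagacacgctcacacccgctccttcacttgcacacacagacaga

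The first question was whether the secretome changed the level of these genes at 3 h beyond the spread between mice. No other time was sampled, so a change that had come and gone before 3 h would not be seen. None of the 10 genes passed a 5% false discovery rate in the quasi-likelihood F-test of edgeR, adjusted over all genes by the Benjamini-Hochberg method, where 0.00691% of all tested genes (1 gene) did. None had an unadjusted p under 0.05 either, against 15.7% of all tested genes (6.52% higher and 9.21% lower with secretome). DESeq2, run as an alternative, also called none of the 10, while it called 213 of the 32456 genes with a p. Of the 32456 genes, 14474 had no adjusted p. The treatments overlapped for every gene, and 6 of the 10 fitted fold changes were above 0. Neither was counted over all genes, so neither is shown to be particular to the 10 genes. The median log2 fold change was 0.04 beside -0.03 over all genes. In whole muscle, fewer cells of a type and less RNA per cell cannot be told apart.

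Among the AP-1 subunits, Fos ranged from 2.55 CPM through a median of 15.7 to 65.1 CPM in Control muscles and from 4.72 through 20.8 to 53.4 CPM in Secretome muscles. The log2 fold change (secretome over control) was 0.23 with a 95% confidence interval of -0.88 to 1.34 (adjusted p = 0.86). It was 0.63 without Control 3, 0.0136 without Secretome 2 and 0.53 with voom. Fosb, expressed at a lower level than Fos, ran from 0.397 through 3.43 to 15.4 CPM with saline and from 1.29 through 4.74 to 14.1 CPM with secretome. The lowest muscle of both genes was Control 5 and the difference of Fosb was 0.07 (SE 0.513, adjusted p = 0.96).

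Junb spanned 7.88 to 189 CPM around a median of 48.4 CPM in Control muscles and 9.96 to 113 CPM around 54.5 CPM in Secretome muscles. Its fitted difference was -0.27 (SE 0.52, adjusted p = 0.825) although its Secretome median was the higher one, and without Control 3, the muscle at 189 CPM, the difference was 0.03. Jun differed from its partners in how little it moved: 84.3, 109 and 184 CPM (lowest, median, highest) with saline and 84.6, 103 and 168 CPM with secretome. Its log2 fold change was 0.01 with an interval of -0.28 to 0.30 (adjusted p = 0.983).

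Atf3 had nearly equal medians, 11.7 CPM in Control muscles (2.55 to 44.6) and 11.8 CPM in Secretome muscles (6.21 to 69.5). The muscle at 69.5 CPM, Secretome 9, set the sign of its fitted difference in all muscles, which was 0.40 (SE 0.487, adjusted p = 0.709) with that muscle and -0.13 without it; within libraries 6 to 15, which do not hold it, Atf3 was at 0.30. Ier2 ran from 3.17 through 6.51 to 19.5 CPM with saline and from 2.81 through 4.94 to 11.2 CPM with secretome. Its difference of -0.44 (SE 0.323, adjusted p = 0.506) was negative in every fit run, but it was -0.19 without Control 3 and -0.0883 with voom, and it passed the threshold in none. Within libraries 6 to 15 it was -0.51.

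Both zinc finger factors spread widely within each treatment. Egr1 lay between 3.63 and 120 CPM around 24.7 CPM with saline and between 5.80 and 116 CPM around 45.6 CPM with secretome, and the fitted difference was -0.04 (interval -1.24 to 1.16, adjusted p = 0.979). Egr2 was the member with the lowest level, at 0.117 to 5.46 CPM around 1.77 CPM with saline and 0.293 to 4.46 CPM around 1.45 CPM with secretome. Its lowest value, in Control 4, rested on 2 reads. The difference of Egr2 was -0.28 (SE 0.478, adjusted p = 0.799), and 0.02 without Control 3.

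Both nuclear receptors had a higher median in Secretome muscles. Nr4a1 was measured at 76.1, 122 and 241 CPM (lowest, median, highest) with saline and at 87.0, 172 and 213 CPM with secretome. Nr4a3 stood at 15.3, 57.0 and 106 CPM with saline and at 34.9, 89.0 and 105 CPM with secretome, so that 9 of 10 Secretome muscles lay above the Control median while the highest Control muscle, replicate 3, was above them all. The log2 fold changes were 0.20 for Nr4a1 (SE 0.212, interval -0.24 to 0.64, adjusted p = 0.669) and 0.44 for Nr4a3 (SE 0.28, interval -0.15 to 1.02, adjusted p = 0.448). Neither passed the test.

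**Figure D1:**
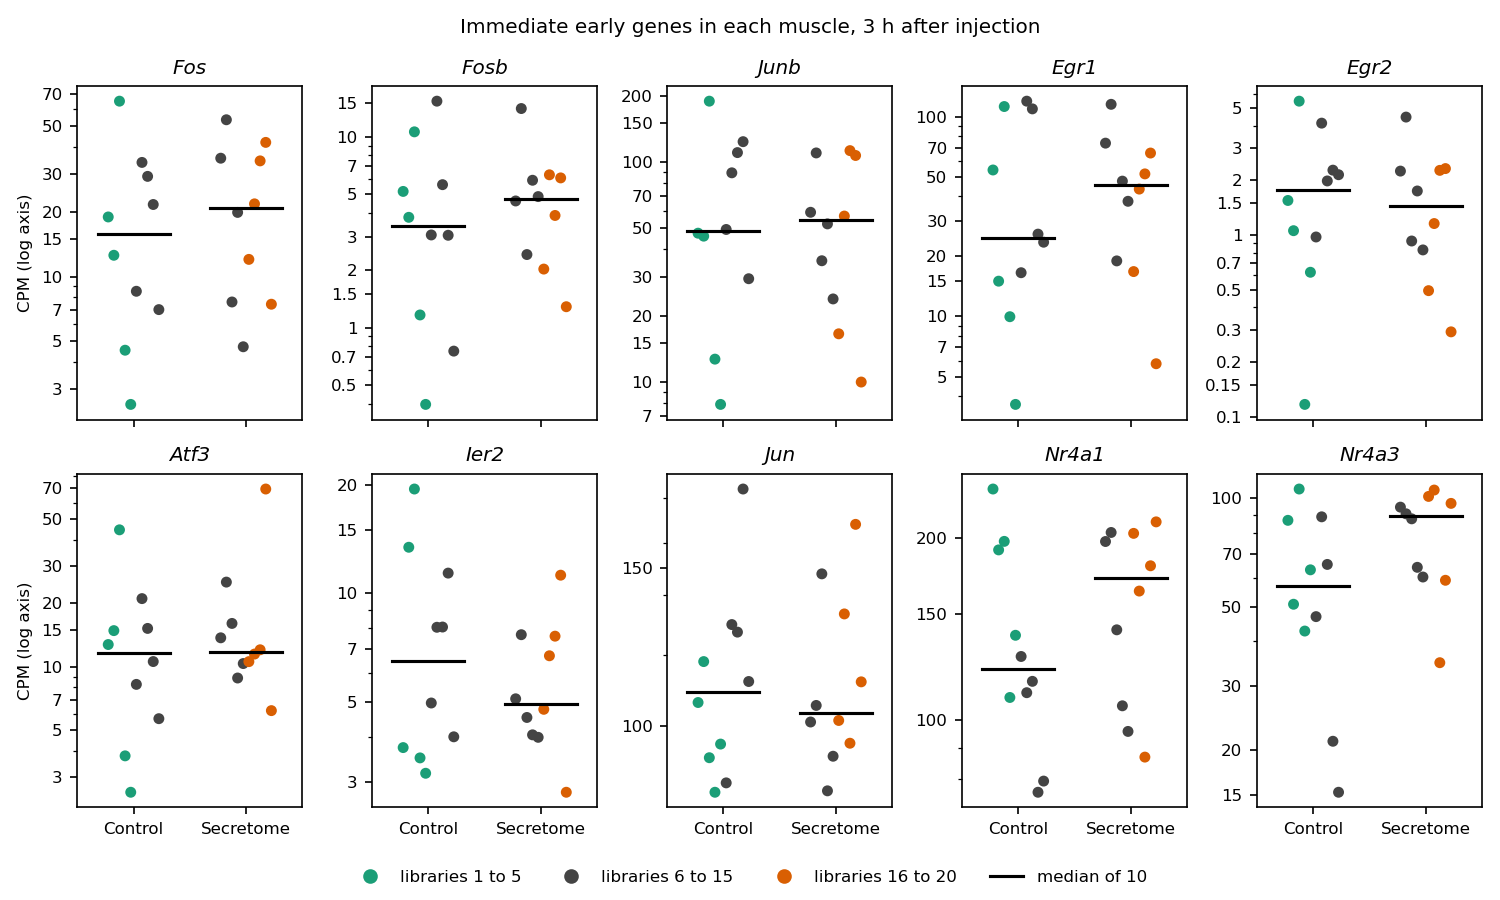
Level of each gene (CPM, log axis) in the 10 Control and 10 Secretome muscles, with the median of each treatment as a line and the point colour giving the range of library numbers. The treatments overlap in every panel, and Fos runs from 2.55 to 65.1 CPM among Control muscles while Jun stays between 84.3 and 184 CPM.

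Within libraries 6 to 15 (n = 5 per treatment) the question was whether the comparison changed where the titin share was alike in both groups. None of the 10 genes passed the 5% false discovery rate there, beside 0.0% of all tested genes. DESeq2 called none of the 10 either, while it called 37 of the 29853 genes with a p. Of the 29853 genes, 15041 had no adjusted p. Nr4a1 was the only member with an unadjusted p under 0.05, beside 9.95% of all genes (5.02% higher, 4.92% lower). It stood at 102 ± 22.98 CPM (SD, n = 5) in Control and 149 ± 50.4 CPM in Secretome muscles, and 2 of the latter lay within the Control range. The log2 fold change was 0.56 (interval 0.07 to 1.04) with p = 0.0289 and adjusted p = 0.471 in edgeR's quasi-likelihood test.

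Nr4a3 went from 47.5 ± 30.7 to 79.4 ± 15.9 CPM (SD, n = 5) in the same range, a log2 fold change of 0.75 with an interval of -0.22 to 1.73 (edgeR adjusted p = 0.574). Control 9 and 10, at 21.1 and 15.3 CPM, were the low muscles, and 2 of the other 3 Control muscles lay within the Secretome range. Jun had a fitted difference of -0.26 within the range (p = 0.197 in edgeR's test) and 0.30 between libraries 1 to 5 and 16 to 20 (p = 0.101). Tested as a difference of effects (outer minus libraries 6 to 15), that of Jun was 0.57 (SE 0.265, edgeR p = 0.0442, adjusted p = 0.427), and Jun was the only member under 0.05 unadjusted, beside 11.1% of all genes (5.51% higher, 5.59% lower). No member passed the 5% false discovery rate in this test, which 0.0553% of all genes (8 genes) did; for Nr4a1 the difference of effects was -0.60 (edgeR p = 0.115).

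**Figure D2:**
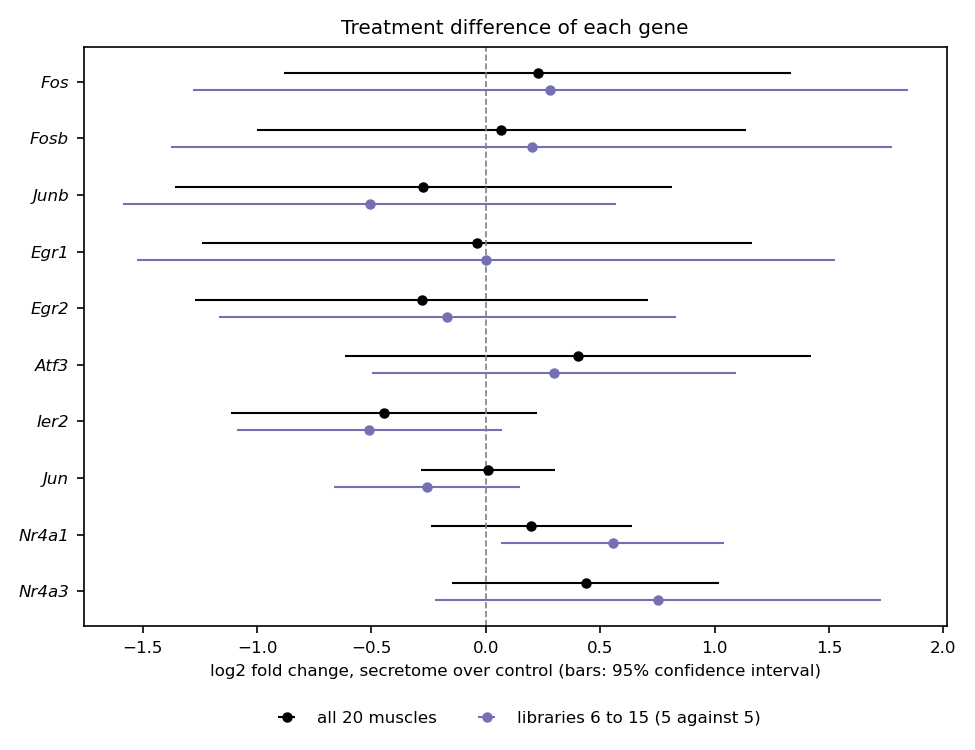
Log2 fold change of each gene, secretome over control, with its 95% confidence interval, in all 20 muscles (black) and within libraries 6 to 15 (purple). Every interval from all muscles crosses 0, and within libraries 6 to 15 only that of Nr4a1 (0.07 to 1.04) does not.

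The genes differed in how much they varied between the muscles of a treatment. The SD of log2 CPM within treatment was 1.48 for Egr1, 1.33 for Junb, 1.31 for Fos, 1.29 for Fosb, 1.196 for Egr2 and 1.08 for Atf3, against a median of 0.334 over all tested genes. These 6 stood at the 98.8th percentile or above of all genes. Ier2 (SD 0.756, 93.3rd percentile) and Nr4a3 (0.727, 92.2nd) were less variable, Nr4a1 followed (0.522, 77.8th), and Jun was at the middle of all genes (0.329, 49.0th). Among genes within 2-fold of the same mean level, the percentile was 77.2 for Jun, 95.4 for Nr4a1, 95.6 for Ier2 and 98.2 for Nr4a3, and for the other 6 it ran from 98.15 for Egr2 to 99.85 for Egr1. From the lowest to the highest muscle, Egr2 spanned 46.8-fold, Fosb 38.8-fold, Egr1 33.1-fold and Fos 25.5-fold, while Nr4a1 spanned 3.17-fold and Jun 2.18-fold. Per kilobase of exon, mean levels ran from 42.4 CPM for Nr4a1 and 35.7 CPM for Jun through 28.0 CPM for Junb, 11.5 CPM for Nr4a3, 10.8 CPM for Egr1, 9.40 CPM for Fos, 7.51 CPM for Atf3 and 4.54 CPM for Ier2 to 0.806 CPM for Fosb and 0.545 CPM for Egr2.

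Muscles were high or low for many of the genes at once. Control 3 was among the 5 highest of 20 muscles for 9 of the 10 genes, Secretome 2 for 7, Secretome 9 for 6 and Control 7 for 5. At the other end, Control 4 was among the 5 lowest muscles for 9 genes, Control 5 and Secretome 10 for 7 each and Secretome 5 for 6. Both ends thus held muscles of both treatments, and Control muscles 3, 4 and 5, at opposite ends, came from the same range of library numbers.

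**Figure D3:**
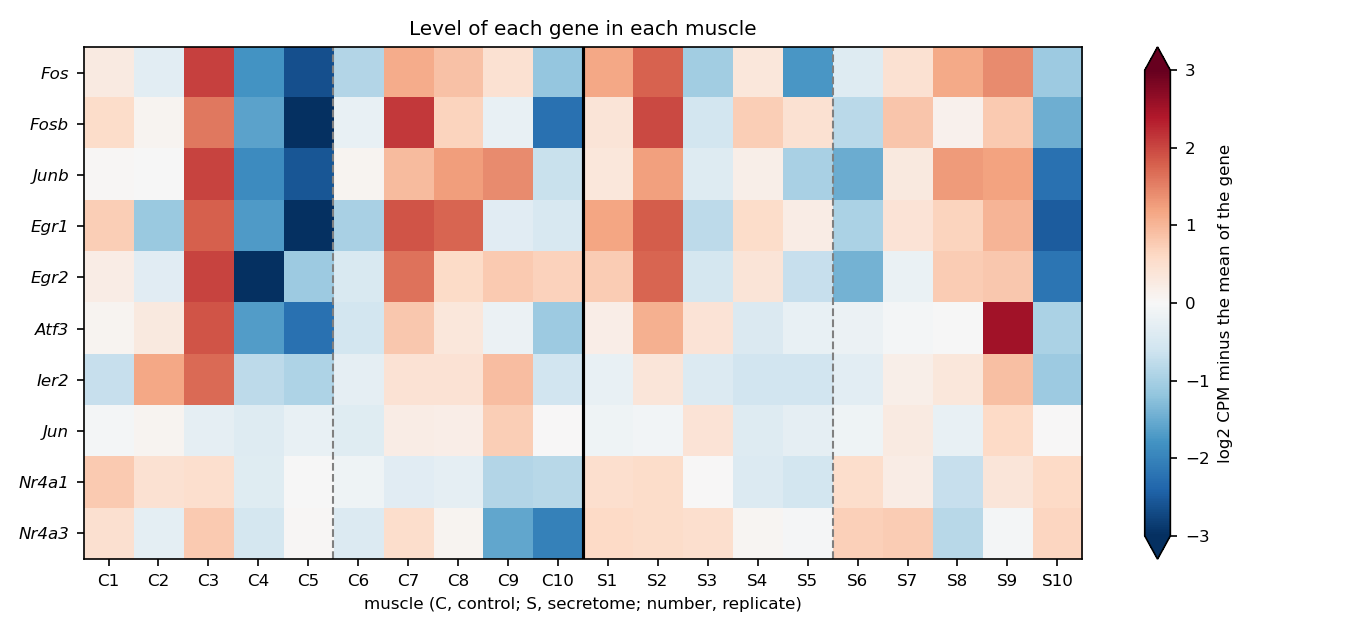
Level of each gene (log2 CPM minus the mean of the gene over 20 muscles) in each muscle, with dashed lines between library ranges and the solid line between treatments. Control 3 is red in 9 of 10 rows and Control 4 blue in all rows, while the Jun row stays pale throughout.

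Covariation was measured as the Pearson correlation of log2 CPM over the 20 muscles after the mean of each treatment was removed, with a two-sided permutation p and Benjamini-Hochberg adjustment over the 45 pairs. Of these, 22 pairs passed and all 22 were positive. They were the 21 pairs among Fos, Fosb, Junb, Egr1, Egr2, Atf3 and Ier2, and the pair Nr4a1 and Nr4a3. The grouping was read from these values after they were seen. Within the 7 genes r ran from 0.593 to 0.911 with a median of 0.818.

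Fos and Junb, 2 partners in AP-1, had the highest correlation (r = 0.911, rho = 0.901, permutation p = 1e-05 for both, the smallest that the resampling can give; adjusted p = 5.6e-05 for r), and r was 0.900 without the 2 muscles farthest from the median of Fos and 0.916 within libraries 6 to 15. Fos and Egr1, which belong to different families, reached r = 0.862 (rho = 0.881, permutation p = 1e-05 each) and 0.901 without 2 muscles. Egr1 and Ier2 were the weakest pair of the 7 genes (r = 0.593, rho = 0.546, adjusted permutation p = 0.0126 for r and 0.0285 for rho). Their r was lower, at 0.435, without the 2 muscles farthest from the median of Egr1 (permutation p = 0.0718). The 21 pairs had r between 0.536 and 0.964 in Control muscles alone and between 0.517 and 0.947 in Secretome muscles alone. When the mean of each treatment and library range was removed, their r ran from 0.659 to 0.926, and within libraries 6 to 15, with 10 muscles, from 0.533 to 0.916, of which 4 pairs passed the adjusted test.

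Over all 20 muscles Nr4a1 and Nr4a3 passed with each other and with no other member. Their r was 0.752 (rho = 0.665, adjusted permutation p = 0.000253 for r and 0.0041 for rho), 0.689 without the 2 muscles farthest from the median of Nr4a1, and 0.666 within libraries 6 to 15 (adjusted permutation p = 0.0888). With Fos, r was 0.218 for Nr4a1 and 0.217 for Nr4a3 (adjusted permutation p = 0.503 for both; rho = 0.220 and 0.290). In Control muscles alone, r of Nr4a3 with the 7 genes ran from 0.192 (Egr2) to 0.581 (Fosb). In Secretome muscles alone it was negative with all 7, from -0.149 (Fosb) to -0.459 (Junb). For Nr4a1 it ran from 0.0496 to 0.384 in Control and from -0.217 to 0.219 in Secretome muscles. Whether r differed between the treatments was not tested. Within libraries 6 to 15 the receptors had higher r with the 7 genes than over all muscles: 0.595 for Nr4a1 and 0.495 for Nr4a3 with Fos, 0.757 for Nr4a3 with Fosb and 0.766 for Nr4a3 with Atf3, the last 2 above the r of the receptors with each other. None of these passed over 10 muscles (adjusted permutation p from 0.0565 to 0.584 over the 14 pairs of a receptor and one of the 7 genes), so the separation of the receptors from the 7 genes rests on all 20 muscles. Jun passed with no other member; its r was 0.265 with Fos (rho = 0.278) and at most 0.421, with Atf3 (rho = 0.484, adjusted permutation p = 0.120 for r).

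**Figure D4:**
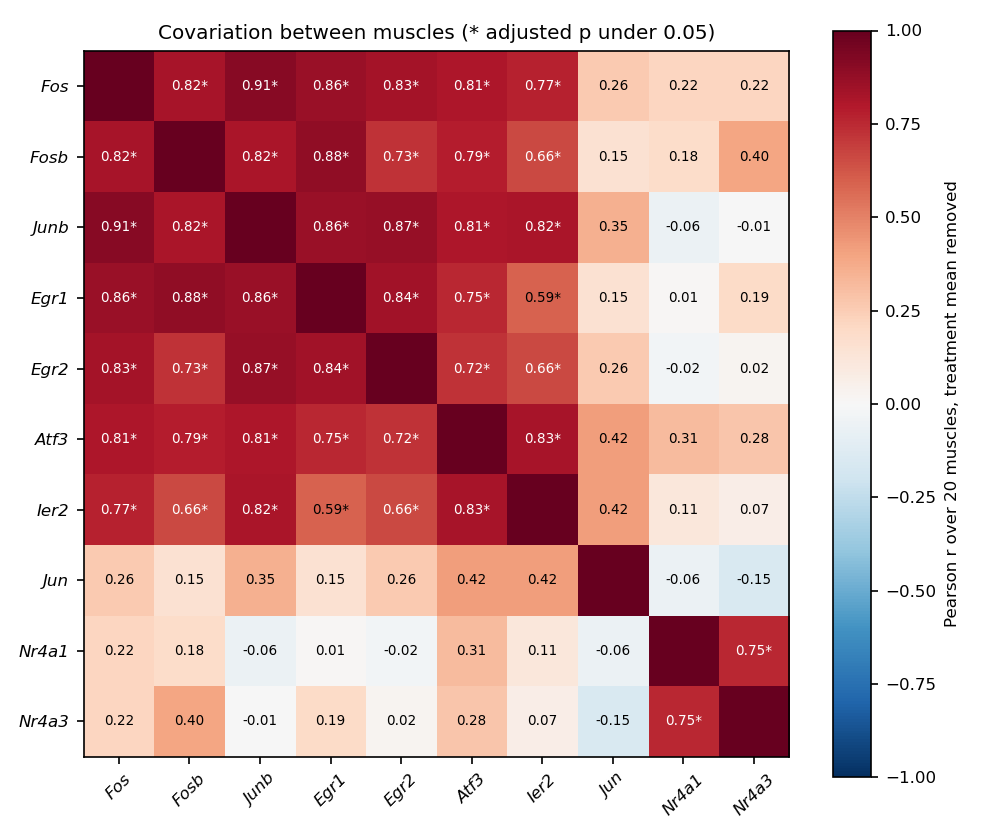
Pearson r of each pair of genes over 20 muscles with the treatment mean removed, with a star where the adjusted permutation p is under 0.05. The 7 genes from Fos to Ier2 form a block with r from 0.593 to 0.911, Nr4a1 and Nr4a3 have a star with each other alone (0.752), and Jun has none.

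Correlations of this size were uncommon among the other genes. An r of at least 0.7 with Fos was found for 1.3% of the 14470 other genes tested and for 6 of the 9 other members. The shares of all genes were 1.89% for Junb (6 other members), 1.35% for Egr1 (5), 1.13% for Atf3 (6), 1.12% for Egr2 (5), 0.581% for Fosb (5) and 2.25% for Ier2 (3). They were 0.138% for Nr4a1 and 0.076% for Nr4a3, each with the other as its 1 member, and 0.836% for Jun, with none. These genes share the same 20 libraries and are not independent of each other.

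Outside the 10 members, the genes most like their mean pattern, by Pearson r over 20 muscles with the mean of the standardised members, were Trib1 (0.893), Midn (0.893), Btg2 (0.892), Socs3 (0.886), Csrnp1 (0.885), Srxn1 (0.874), Rara (0.872) and Celsr3 (0.869, mean level 1.03 CPM). Socs3, a feedback inhibitor of cytokine signalling, and Btg2, an antiproliferative gene induced by growth factors, had r of 0.949 and 0.932 within libraries 6 to 15. These are descriptions and were given no test.

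The wider immediate early network was read from 6 lists, and none of their genes passed the 5% false discovery rate in edgeR's test. Of the other AP-1 genes 4 of 7 were tested, and none had an unadjusted p under 0.05. Jund, the constitutive Jun protein, was at -0.44 (p = 0.0544; -0.40, p = 0.0449 within libraries 6 to 15), Jdp2 at 0.18 (0.32 within the range) and Fosl2 at -0.11 (-0.093) on the log2 fold change scale. Fosl2 and Fosl1, Fos-related antigens, had r of 0.884 and 0.857 with Fos. Of 7 tested EGR, NR4A and KLF factors, Klf9, a glucocorticoid-responsive factor, had an unadjusted p under 0.05 (218 ± 39.9 against 253 ± 21.2 CPM, log2 fold change 0.22, p = 0.0341), but its difference within libraries 6 to 15 was 0.07. The others named by rule were Klf10 (-0.24, p = 0.157; -0.35 within libraries 6 to 15) and Klf2 (-0.25, p = 0.288; -0.0871).

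Among 26 other rapidly induced genes, 10 had r of at least 0.7 with Fos (1.3% of all genes did) and 2 an unadjusted p under 0.05 (15.7% of all genes), with a median log2 fold change of -0.10. Ccn2, a matricellular growth factor target, was at 9.53 ± 2.86 CPM in Control and 13.2 ± 4.26 CPM in Secretome muscles (log2 fold change 0.47, p = 0.0229), and at -0.05 within libraries 6 to 15. Ier5l was at -0.70 (p = 0.0378) and Tiparp at 0.33 (p = 0.0871), but at -0.28 (p = 0.379) and 0.18 (p = 0.429) within libraries 6 to 15. Of 19 feedback inhibitors, which include phosphatases, inhibitors of receptor and Ras signalling, transcript decay factors and corepressors, 12 had fitted differences below 0, where the median over all genes was also below 0 (-0.03), and 1 had an unadjusted p under 0.05, a smaller share than the 15.7% of all genes. This was Zfp36l2, which binds AU-rich transcripts, at 20.9 ± 7.09 against 15.2 ± 3.45 CPM (-0.46, p = 0.0111, adjusted p = 0.205 in edgeR's test; -0.32 within libraries 6 to 15), followed by Dusp4 (-0.60, p = 0.0568; -0.72) and Spred2 (-0.23, p = 0.0642; -0.11). Zfp36 and Dusp5 had r of 0.826 and 0.730 with Fos.

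The upstream list of kinases and transcription factors was the list with the most genes under an unadjusted p of 0.05, at 6 higher and 3 lower of 32 tested, beside 15.7% of all genes. Within libraries 6 to 15 it was 2 higher and 1 lower of 32, beside 9.95% of all genes. Rps6ka1, which encodes the kinase RSK1 downstream of ERK, was at 8.88 ± 2.26 CPM in Control and 5.95 ± 1.37 CPM in Secretome muscles, all 10 of which lay below the Control median. Its log2 fold change was -0.58 (p = 0.00119, adjusted p = 0.136 in edgeR's test) and -0.60 within libraries 6 to 15, and with DESeq2 it passed at 5% (adjusted p = 0.0492). Map2k4 and Mapk9, consecutive kinases of the JNK pathway that acts on Jun, were at 0.27 each (p = 0.0114 and 0.0126), with all 10 Secretome muscles above the Control median, and at 0.23 and 0.24 within libraries 6 to 15 (p = 0.0929 and 0.0501). All 10 also lay above it for Atf1, Rps6ka5 and Map2k6 (edgeR p = 0.194 for Map2k6), and none did for Elk1 (edgeR p = 0.0482). Such counts were not made over all genes. No gene of this list had r of at least 0.7 with Fos.

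Of 14 acute injury genes 11 were tested. Il6, Cxcl2 and Lif did not pass the filter on low counts, so whether they changed is not known. Of the 11, none had an unadjusted p under 0.05, while 8 had r of at least 0.7 with Fos, which 1.3% of all genes had, Socs3 at 0.914 among them. Hspa1b and Hspa1a, the inducible heat shock proteins, were at 1.35 (p = 0.0566) and 0.97 (p = 0.0894) in all muscles but at -1.01 (p = 0.0596) and -0.94 (p = 0.0152, adjusted p = 0.452 in edgeR's test) within libraries 6 to 15. Socs3 was at -0.48 (p = 0.472; -0.62 within the range). In no list did a gene reach r of 0.7 with Nr4a1.

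**Figure D5:**
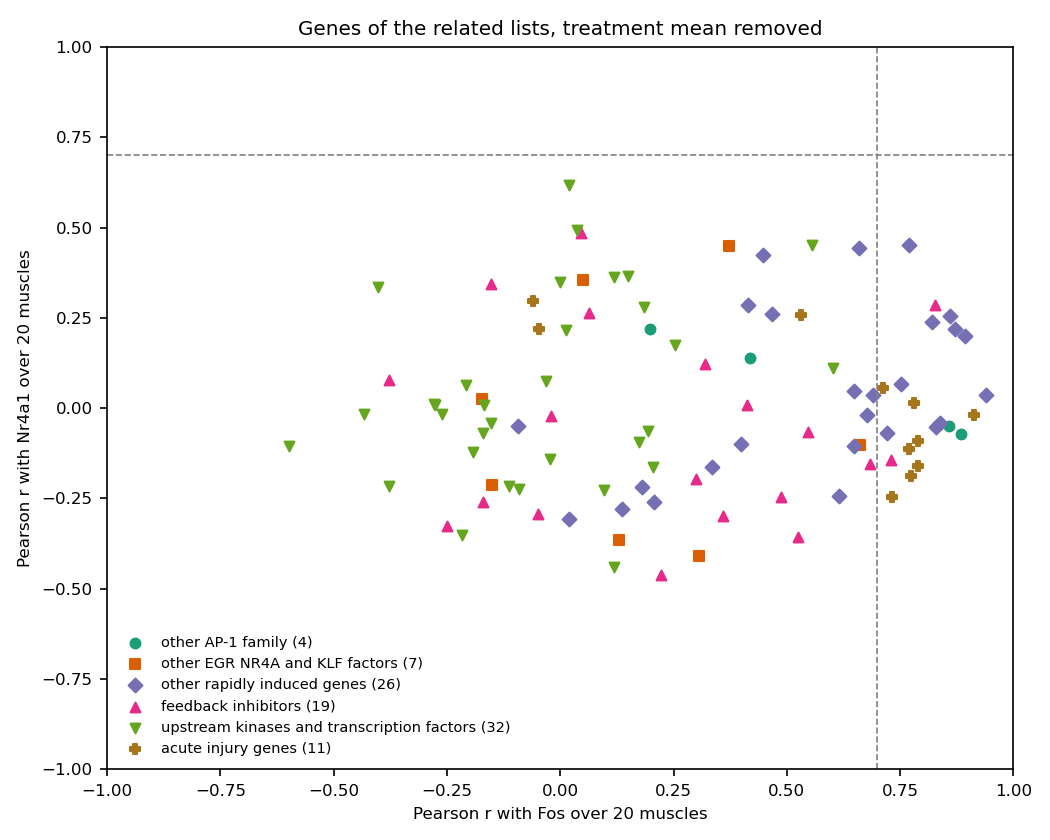
Pearson r with Fos (horizontal) and with Nr4a1 (vertical) over 20 muscles, treatment mean removed, for the tested genes of the 6 lists, with dashed lines at 0.7. To the right of the vertical line lie 10 of 26 other rapidly induced genes, 8 of 11 acute injury genes, 2 of 19 feedback inhibitors and 2 of 4 other AP-1 genes, and none lies above the horizontal line.

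Cell type markers and library measures were set beside the members in 100 relations, of which none passed the adjusted permutation test. Neutrophil markers (4 of 7 tested) had r of 0.667 with Junb (rho = 0.714, permutation p = 0.00133, adjusted p = 0.0973), 0.571 without 2 muscles, 0.608 without Control 3 and 0.281 within libraries 6 to 15. Their r was also positive with the other 6 of the 7 genes, at 0.633 with Egr1, 0.609 with Egr2, 0.596 with Fos, 0.484 with Ier2, 0.472 with Fosb and 0.340 with Atf3 (rho from 0.332 to 0.681, adjusted permutation p from 0.0973 to 0.427), and within libraries 6 to 15 it ran from 0.0603 to 0.438 over the 7 genes. The summed level of all 7 neutrophil markers, tested or not, ran from 1.52 to 111 CPM in Control muscles, where Control 3 had 111 and the next muscle 14.1 CPM. In Secretome muscles it ran from 1.31 to 117 CPM, where Secretome 8 had 117, Secretome 7 had 60.5 and the next muscle 20.9 CPM. Secretome 7 and 8 stayed in when Control 3 was left out. Ly6g, a defining neutrophil marker, was at 0 in 15 of 20 libraries. Satellite cell markers (3 of 4 tested) had negative r with all 7 genes, from -0.409 with Egr2 to -0.632 with Ier2 (for Ier2 rho = -0.684, adjusted permutation p = 0.0973). Without the 2 muscles farthest from the median of these markers, r ran from -0.251 with Egr1 to -0.541 with Ier2. Within libraries 6 to 15 this r ran from -0.0517 with Egr1 to -0.802 with Ier2. The 4 markers were low, summing to 6.12 to 18.5 CPM in Control and 5.70 to 11.1 CPM in Secretome muscles. Schwann cell markers also had positive r with all 7 genes, from 0.104 with Fosb to 0.367 with Junb, and 0.521 with Jun. Without 2 muscles this r ran from 0.371 with Fosb to 0.674 with Junb, and within libraries 6 to 15 from -0.281 with Fosb to 0.306 with Atf3. Macrophage markers and fibroblast markers had negative r with all 7 genes. Over all 10 genes r was negative for endothelial markers (-0.502 to -0.00292) and for smooth muscle and pericyte markers (-0.489 to -0.0277). The titin share had r between -0.464 and 0.352 and the total count between -0.222 and 0.223 over the 10 genes. The part of neutrophil, satellite cell or other cell type content in the covariation was not tested.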

How the data were processed

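Stranded libraries of total RNA from 20 injected quadriceps, 1 per mouse, were sequenced in pairs (150 bases). Per the submitters' processing notes the tools named are cutadapt 1.16, STAR 2.7.9a, featureCounts 1.6.3 and DESeq2 1.34.0, and the build GRCm39 (mm39). The deposited values are raw counts per gene, whole numbers with no normalization made by the authors. Groups, replicate and library numbers came from the sample titles, and no pair of columns was identical. Symbols were matched for 52083 of 55416 identifiers, which held at least 98.6% of the counts of each library. The annotation release behind the counts is not given in the sources used here, and exon lengths were taken from GENCODE on GRCm38.

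Counts were filtered with filterByExpr, scaled with TMM and tested with edgeR 4.0.16 (R 4.3.3, robust quasi-likelihood F-test, treatment as the only term, Benjamini-Hochberg adjustment at 5%), in all 20 muscles and in libraries 6 to 15. The difference of the effects was tested as an interaction with library range. Standard errors were computed by dividing each log2 fold change by the square root of its F. The scripts were tested on simulated data. Alternatives were DESeq2 1.42.0, RLE scaling, no filter, voom with quality weights (limma 3.58.1), library range or replicate number as a term, a 10% threshold and each muscle left out. Correlations used log2 CPM with a prior count of 2 and 100000 resamples (scipy 1.17.1).

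The 10 genes, the lists and the tests were chosen with earlier results of these data known. Named genes are every member, the 3 genes of each list with the smallest p, and the 8 genes with at least 1 CPM most like the members' mean. Where other genes are named for their correlation with Fos or Nr4a1, they were chosen after their values were seen. Counting on few reads limits Egr2, whose counts ran from 2 to 97 per muscle; counts of Jun and Nr4a1 were at least 1356.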

Additional observations from a re-analysis of the deposited data

Results flagged for a closer look

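Among the 10 genes in each of 2 treatments, 20 groups of 10 muscles were searched for a single muscle far from the others by Dixon's ratio against its 95% critical value, and 1 muscle was found, where chance gives about 1. Nr4a3 in Secretome 8 had a log2 CPM of 5.13 (34.9 CPM), with the next lowest Secretome muscle at 5.89, a gap of 0.477 of the range of the group. Nr4a1 was also lowest in that muscle among Secretome muscles (87.0 CPM), while Fos (34.4 CPM) and Junb (113 CPM) were above their group's median there.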

How the results depend on the processing

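Over 410 values of the 10 genes from alternative fits, none passed the threshold, nor did any of the 10 genes at a 10% false discovery rate, with 0 to 0 members called when each muscle was left out, and the smallest adjusted p was 0.301. In 41 of them the sign changed. With voom the difference was -0.033 for Jun, 0.0653 for Junb and 0.39 for Egr1 in all muscles and -0.0615 for Fos in libraries 6 to 15. With the 3 library ranges as a term Jun was at -0.27. Within libraries 6 to 15 Egr1, at 0.00155, became -0.00202 with DESeq2, -0.00166 with RLE and -0.00511 with no filter. Leaving out each muscle in all muscles gave -0.24 to 0.46 for Fosb, -0.0689 to 0.11 for Jun, -0.43 to 0.0261 for Junb, -0.29 to 0.21 for Egr1, -0.57 to 0.0176 for Egr2 and -0.13 to 0.81 for Atf3; in libraries 6 to 15 it gave -0.24 to 0.56 for Fos, -0.31 to 1.05 for Fosb, -0.39 to 0.43 for Egr1 and -0.68 to 0.16 for Egr2. The causes were not tested.

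Replicate numbers are shared between the treatments, but same-numbered muscles did not deviate together (r from -0.24 to 0.221, 2 of 10 over 0.1). With the replicate block no member was called, no list gene and no gene at all was called, and Egr1 was at 0.28. Of the genes of the 6 lists, 0 were called by edgeR and 1 (Rps6ka1) by DESeq2. Over all genes the count of calls was 1 with edgeR and 213 with DESeq2 (67 higher, 146 lower), and 0 to 15 with 1 muscle left out; in libraries 6 to 15 it was 0, 37 with DESeq2 and 11 with no filter, and for the difference of effects 8 and 168 with DESeq2.

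Of the 45 pairs, 22 passed, 22 to 24 with 1 muscle left out, and 4 in libraries 6 to 15, where there are 10 muscles in place of 20; all 4 were among the 22. The same 22 passed with no treatment mean removed, with the mean of each treatment and range removed, with a prior count of 0.5, with RLE and by rho.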
